A study of Sus scrofa with 20 samples.

Results

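Genes of meningeal fibroblasts and of the collagen matrix were followed in the hippocampus of adult German Landrace pigs. The group comprised 10 genes, namely the small leucine-rich proteoglycan genes DCN, LUM and OGN, the fibrillar collagen genes COL1A1, COL1A2 and COL3A1, the gelatinase gene MMP2, ALDH1A2, FOXC1 and SLC6A13. Members were found by their symbol in the platform annotation, and the brightest probe set over all arrays stood for each gene. Of the 10 genes, 9 were named on the array by 15 probe sets, out of 13755 named genes in all, and no probe set carried the name SLC6A13, which encodes a GABA and taurine transporter. Each of 20 animals gave 1 hippocampus sample and 1 Affymetrix Snowball array, from 10 high-reactive (HR) and 10 low-reactive (LR) animals. The animals were picked as extremes of struggling in a backtest in early life and for their haplotype at a coping behavior quantitative trait locus on chromosome 12 (SSC12), so coping pattern and haplotype cannot be told apart. Breed, adult stage and tissue were the same in both groups, and the labels name no treatment. Whether sex, litter or processing day differed between the groups is not given in the sources used here, and the p-values measure the spread between these animals.

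The meninges wrap the brain in layers of fibroblasts and an arachnoid barrier, and fibroblasts of the same kind follow the larger vessels into the tissue. They lay down fibrils of type I and type III collagen, on which decorin, lumican and osteoglycin sit and control the width and spacing of the fibrils, and matrix metalloproteinases cut the collagen back. Meningeal fibroblasts also release retinoic acid, made by ALDH1A2, and depend on the forkhead factor FOXC1 during development in the mouse. A hippocampus sample holds such cells only along its surface and its vessels, and in bulk tissue fewer cells of a type and less RNA per cell cannot be told apart.

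Values are log2 probe set values, so 1 unit is a doubling of the signal, and the level of a probe set cannot be set against that of another. Correlations between arrays lay between 0.949 and 0.991, and a first principal component of all tested probe sets took up 48.0% of the variance. Of the 9 named genes, 8 had a brightest probe set above the filter level of 5.53, which is the median over the means of every probe set, and 12 of the 15 probe sets passed. ALDH1A2 lay below it with a mean of 4.19 and is given as values only. FOXC1 lay little above it with a mean of 5.97. Of 24 further genes of the meninges and the arachnoid barrier that were named on the array, 16 passed the filter, among them PTGDS, ZIC1, FOXC2 and SLC13A3, while ZIC4, TBX18, CRABP2 and SLC6A20 did not. Both the matrix lists and the meningeal list thus held genes too dim to test, among them 6 of 9 further small leucine-rich proteoglycan genes. Each title carries a number that no source explains, and this title number was above 2700 in 9 HR and 3 LR arrays and below 2700 in 1 HR and 7 LR arrays.

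The first comparison asked whether these genes differed between HR and LR hippocampus. LUM was higher and MMP2 lower in HR at unadjusted p only, and the 6 other tested genes differed by no more than 0.14 log2. With limma, 0 of the 8 tested genes passed the adjusted threshold of 0.05, as did 0% of all 23861 probe sets tested, and 2 of the 8 had an unadjusted p under 0.05 against 11.5% of all probe sets. Of these, 1 was higher in HR, against 7.78% of all probe sets, and 1 was lower, against 3.74%. A Wilcoxon test gave 0 genes after adjustment and 1, LUM, before it. In each of the 9 genes the values of the groups overlapped, and this held for every one of the 23861 probe sets, of which 0% had groups that did not overlap. The median difference over all probe sets tested was -0.014 log2.

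**Figure D1:**
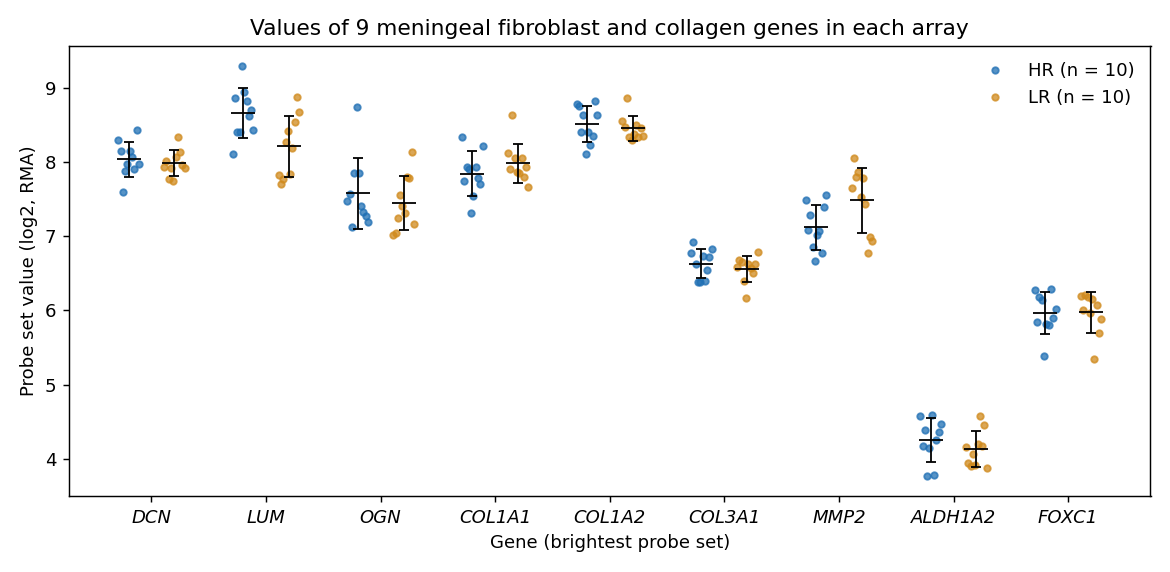
Log2 probe set value (y axis) of the brightest probe set of 9 genes (x axis) in each of 20 arrays, with HR in blue and LR in orange and bars for the mean and SD of 10 arrays. The HR and LR means were 8.66 and 8.21 for LUM and 7.12 and 7.48 for MMP2, and the groups overlapped for every gene.

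LUM encodes lumican, a keratan sulfate proteoglycan that binds collagen fibrils. Its value was 8.11 at the lowest, 8.66 at the median and 9.29 at the highest in HR, and 7.70, 8.23 and 8.88 in LR. The LR arrays were spread widely, with replicates 1, 2, 3 and 6 below every HR array and the other 6 inside the HR range, replicates 4, 5 and 7 in its lower part at 8.19 to 8.42 and replicates 8, 9 and 10 at 8.54 to 8.88. HR arrays averaged 8.66 ± 0.34 against 8.21 ± 0.42 for LR arrays (SD, n = 10 per group), which differ by 0.45 ± 0.16 log2 (SE) or 1.37-fold (limma, p = 0.00894, adjusted p = 0.337). The median of LR was exceeded by 9 of 10 HR arrays. LUM lies on chromosome 5 at 91748871 to 91756381 (Sscrofa11.1).

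MMP2 encodes gelatinase A, a protease that degrades denatured collagen and basement membrane collagen. It ran from 6.67 through a median of 7.07 to 7.55 in HR, and from 6.78 through 7.59 to 8.05 in LR. All 10 HR arrays lay below the LR median, yet the same 3 LR arrays that were high in LUM were low in MMP2, at 6.78 to 6.99. HR arrays averaged 7.12 ± 0.30 against 7.48 ± 0.44 for LR arrays (SD, n = 10 per group), with a difference of -0.36 ± 0.16 log2 (SE, limma, p = 0.0287, adjusted p = 0.386). The unadjusted p of MMP2 was above 0.05 when any 1 of LR replicates 2, 3, 4 and 6 or HR replicates 4, 5 and 8 was left out. The second probe set of MMP2 gave -0.37 ± 0.16 (SE) and followed the brightest with r = 0.91 over the 20 arrays. The gene lies on chromosome 6 at 30059247 to 30087031.

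The differences of LUM and MMP2 moved with the number in the sample title. In the arrays with a number below 2700, LUM lay between 7.70 and 8.42 in the 7 LR arrays and at 8.11 in the 1 HR array. Above 2700 it lay between 8.54 and 8.88 in the 3 LR arrays and between 8.41 and 9.29 in the 9 HR arrays. For MMP2 the 7 LR arrays below 2700 lay between 7.43 and 8.05 and the 1 HR array at 7.49, whereas above 2700 the LR arrays lay between 6.78 and 6.99 and the HR arrays between 6.67 and 7.55. Thus LR arrays with a high title number resembled HR arrays in both genes. Fitting the title number as a covariate left LUM with a difference of 0.14 ± 0.17 log2 (SE, limma, p = 0.434) and MMP2 with -0.13 ± 0.18 (p = 0.495). Within the arrays above 2700, a division chosen after the values were seen, LUM differed by 0.02 (p = 0.894) and MMP2 by 0.17 (p = 0.308). Over all probe sets, the share with an unadjusted limma p under 0.05 was 11.5% without the covariate and 2.83% with it. Within the arrays above 2700, which are fewer, it was 2.91%. A loss of such p-values was therefore not particular to LUM and MMP2. What the number stands for was not tested.

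Among the remaining proteoglycan genes, DCN encodes decorin, which binds type I collagen and holds back TGF-beta. It ran from 7.59 through 8.02 to 8.43 in HR and from 7.75 through 7.95 to 8.34 in LR. The ranges lay almost on top of each other, with a difference of 0.06 ± 0.09 log2 (SE, limma, p = 0.533) and a 95% interval from -0.13 to 0.25. DCN is the neighbour of LUM on chromosome 5 (91678601 to 91713925), with 34945 bases between the annotated genes.

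OGN encodes osteoglycin, a proteoglycan of bone and connective tissue. Its values were 7.13 at the lowest, 7.45 at the median and 8.74 at the highest in HR, and 7.02, 7.36 and 8.14 in LR. One HR array, replicate 5, stood above all others, and it was also the highest in LUM and the lowest in MMP2, COL1A1 and COL1A2. The difference was 0.14 ± 0.18 log2 (SE, limma, p = 0.447, 95% interval -0.23 to 0.50). It was 0.01 without that array. OGN lies on chromosome 3 at 42116521 to 42135940.

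COL1A1 and COL1A2 encode the chains of type I collagen, and COL3A1 encodes type III collagen. COL1A1 lies on chromosome 12 (26379087 to 26397180), which also carries the coping behavior locus, and ran from 7.31 through 7.85 to 8.34 in HR and from 7.66 through 7.92 to 8.63 in LR. Its highest value was that of LR replicate 3, and the groups differed by -0.14 ± 0.12 log2 (SE, limma, p = 0.241). The 4 other probe sets of COL1A1 differed by -0.10 to 0.00 and followed the brightest with r of 0.27 to 0.73 over the 20 arrays. The one at 0.27 had a mean of 5.56, near the filter level.

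COL1A2 (chromosome 9, 74174484 to 74210407) ran from 8.11 through 8.52 to 8.83 in HR and from 8.30 through 8.42 to 8.87 in LR, with a difference of 0.06 ± 0.09 log2 (SE, limma, p = 0.559). COL3A1 (chromosome 15, 93556914 to 93595678) ran from 6.38 through 6.67 to 6.92 in HR and from 6.17 through 6.61 to 6.79 in LR, with a difference of 0.07 ± 0.09 (p = 0.447). Neither of these collagen genes was separated by coping group, and the 95% intervals of -0.14 to 0.25 and -0.11 to 0.24 include 0. The second probe set of COL3A1 was dim, with a mean of 3.46, and differed by 0.01.

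FOXC1, a forkhead factor needed for the meninges and for pericytes of brain vessels in the mouse, ran from 5.38 through 5.96 to 6.29 in HR and from 5.35 through 6.04 to 6.21 in LR. Its difference of -0.01 ± 0.12 log2 (SE, limma, p = 0.939) had a 95% interval of -0.25 to 0.23. ALDH1A2, which oxidises retinal to retinoic acid, ran from 3.77 through 4.31 to 4.59 in HR and from 3.87 through 4.11 to 4.58 in LR, a difference of 0.13 ± 0.12 when dim probe sets were also fitted (limma, p = 0.292). FOXC1 lies on chromosome 7 (837088 to 840593) and ALDH1A2 on chromosome 1 (113932722 to 114037059).

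**Figure D2:**
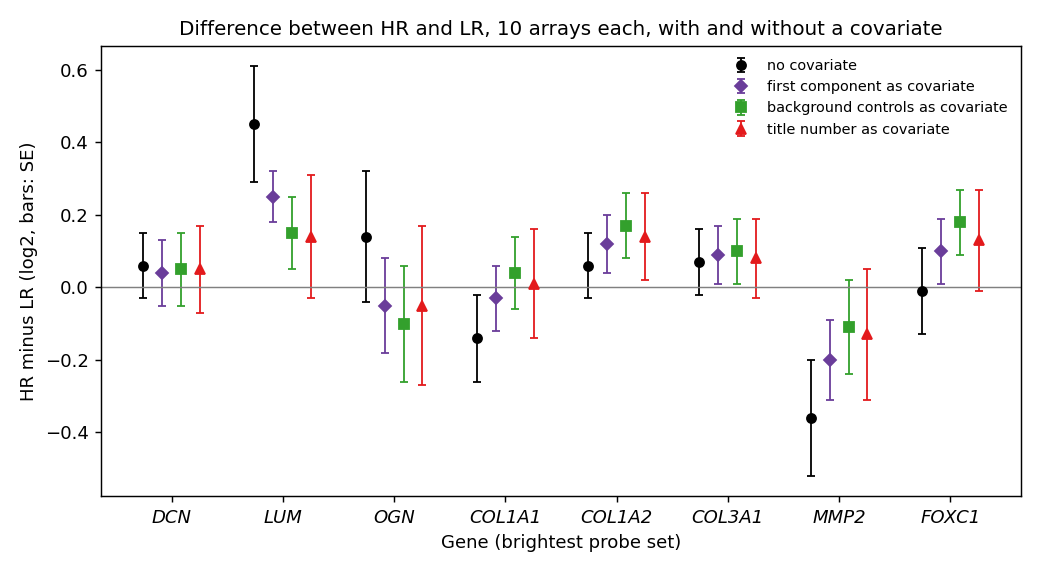
Difference HR minus LR in log2 (y axis) of the 8 tested genes (x axis) with bars for the SE, fitted without a covariate (black), with the first principal component (purple), with the level of the background control probe sets (green) and with the title number (red). The difference of LUM was 0.45 without a covariate and 0.25, 0.15 and 0.14 with them, and that of MMP2 was -0.36 and then -0.20, -0.11 and -0.13.

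The genes also differed in how much they varied between animals. LUM, OGN and MMP2 had SDs over all arrays of 0.44, 0.42 and 0.41 log2, larger than those of 92.0%, 90.7% and 89.9% of the probe sets tested. DCN, COL1A2 and COL3A1 had SDs of 0.20, 0.21 and 0.19, larger than those of 43.5%, 45.6% and 32.4%. The varying genes and the steady genes thus cut across the protein families, since LUM and OGN varied and their fellow proteoglycan gene DCN did not.

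The second comparison asked whether the genes varied together from array to array. The members did not move as 1 set. Over 36 pairs of 9 genes the median Pearson r was 0.11, with a range from -0.82 to 0.64, and 9 pairs passed a permutation test after adjustment over the pairs, 4 with a positive and 5 with a negative r. LUM and OGN were high in the same arrays, MMP2 and FOXC1 were low where either was high, COL1A1 was low where LUM was high, and DCN, COL3A1 and ALDH1A2 entered no pair of that contrast. OGN against COL1A1 did not pass (r = -0.47, permutation adjusted p = 0.127, rho = -0.28, permutation p = 0.241). Many of the called values were common on these arrays. Among 10312 genes, 20.7% had a higher r with LUM than OGN had, 19.0% a lower r than COL1A1, 36.6% a lower r than FOXC1 and 5.1% a lower r than MMP2. With OGN, 20.8% had a lower r than MMP2 and 11.8% than FOXC1, and with COL1A1, 15.1% had a higher r than MMP2. The count rested on HR replicate 5, without which 1 pair passed, LUM against MMP2, and on LR replicate 3, without which 5 passed.

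**Figure D3:**
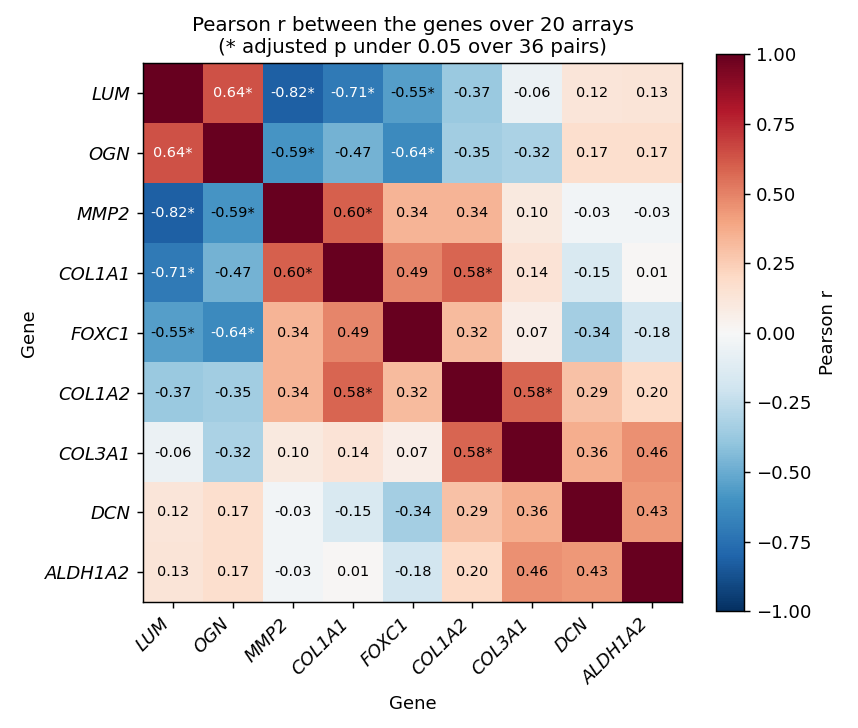
Pearson r over 20 arrays between each 2 of 9 genes (rows and columns), from blue for -1 to red for 1, with a star for an adjusted p under 0.05 over 36 pairs. LUM and OGN were positive to each other (0.64) and negative to MMP2 (-0.82 and -0.59), and DCN had no pair past the threshold.

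LUM against MMP2 was the most marked pair, with r = -0.82 (permutation p = 3e-05, adjusted p = 0.00108) and rho = -0.76 (permutation p = 0.00018, adjusted p = 0.00648). It was -0.63 within HR and -0.84 within LR, and -0.74 without the 2 arrays farthest from the median of LUM. The second probe set of MMP2 gave r = -0.89. In arrays with a title number above 2700 r was -0.41 and below 2700 it was -0.59. It was thus smaller in size inside each range, which holds fewer arrays, and passed the adjusted threshold in neither (permutation adjusted p = 0.431 and 0.48). After regression on the number it was -0.71 (adjusted p = 0.0194). Among 10312 genes, 0.7% had a lower r with MMP2 than LUM had, and 5.1% a lower r with LUM than MMP2 had.

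**Figure D4:**
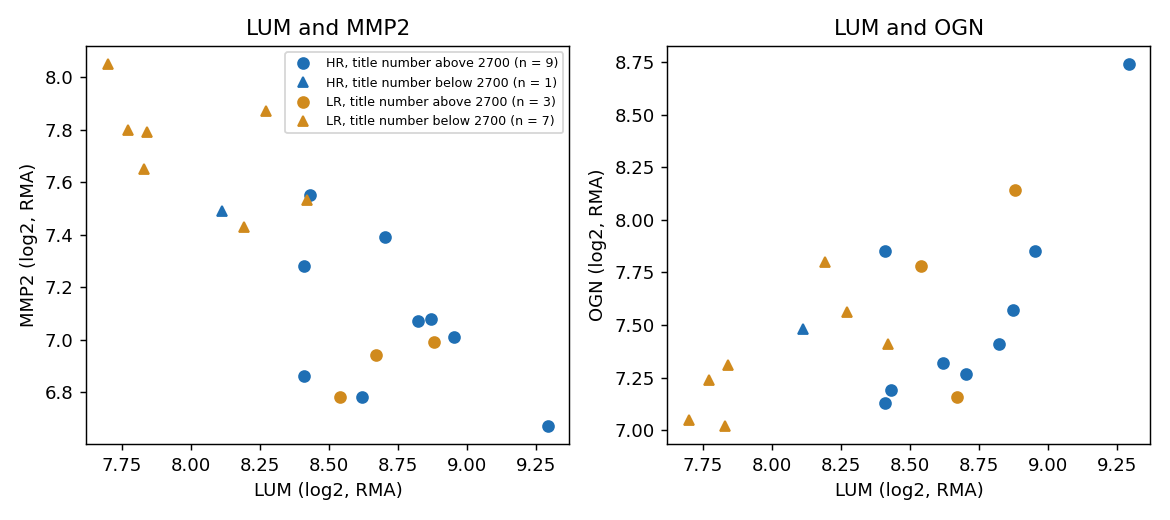
Log2 values of LUM (x axis) against MMP2 (left) and OGN (right) in 20 arrays, HR in blue and LR in orange, with circles for a title number above 2700 and triangles below. MMP2 went down as LUM went up (r = -0.82), and the 3 LR circles lay among the HR arrays. OGN went up with LUM (r = 0.64), and 1 HR array stood at 8.74.

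LUM against COL1A1 had r = -0.71 (permutation p = 0.00052, adjusted p = 0.00936) and rho = -0.67 (permutation p = 0.00157, adjusted p = 0.0283), with -0.91 within HR, -0.52 within LR and -0.71 without the 2 farthest arrays. With the 4 other probe sets of COL1A1 the r of LUM was -0.56, -0.35, -0.42 and -0.51. LUM against OGN had r = 0.64 (permutation p = 0.00172, adjusted p = 0.0206) and rho = 0.55 (permutation p = 0.0124, adjusted p = 0.0675), with 0.67 within HR, 0.69 within LR and 0.42 without the 2 farthest arrays. LUM and OGN thus kept their sign in both groups, but the call rested in part on HR replicate 5, without which r was 0.50 (permutation adjusted p = 0.181). LUM against FOXC1 had r = -0.55 (permutation p = 0.0114, adjusted p = 0.0455) and rho = -0.62 (permutation p = 0.00395, adjusted p = 0.0474), with -0.90 within HR, -0.43 within LR and -0.45 without the 2 farthest arrays.

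OGN against FOXC1 had r = -0.64 (permutation p = 0.00336, adjusted p = 0.0302) and rho = -0.48 (permutation p = 0.0346, adjusted p = 0.138), with -0.37 without the 2 farthest arrays. OGN against MMP2 had r = -0.59 (permutation p = 0.00503, adjusted p = 0.0302) and rho = -0.55 (permutation p = 0.0131, adjusted p = 0.0675), with -0.47 without the 2 farthest arrays. Both pairs passed by r and not by rho. They kept the negative sign within HR (-0.72 and -0.68) and within LR (-0.56 and -0.55).

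The 2 genes of type I collagen, whose protein chains assemble in 1 triple helix, had r = 0.58 (permutation p = 0.00637, adjusted p = 0.0328) and rho = 0.42 (permutation p = 0.0679, adjusted p = 0.204). That r was 0.50 within HR, 0.91 within LR, 0.26 without the 2 arrays farthest from the median of COL1A1 and 0.45 without LR replicate 3 (permutation adjusted p = 0.148), the array with the highest value of both genes. With the 4 other probe sets of COL1A1, from the brightest to the dimmest, r with COL1A2 was 0.78, 0.71, 0.05 and 0.41. Of 10312 genes, 17.6% had a higher r with COL1A1 than COL1A2 had, and 1.2% a higher r with COL1A2 than COL1A1 had. COL1A2 and COL3A1 had r = 0.58 (permutation p = 0.00836, adjusted p = 0.0376) and rho = 0.59 (permutation p = 0.00746, adjusted p = 0.0537), with 0.68 within HR and 0.38 within LR. From the side of COL3A1, 0.1% of 10312 genes had a higher r than COL1A2, and from the side of COL1A2, 1.5% had a higher r than COL3A1. COL1A1 and MMP2 had r = 0.60 (permutation p = 0.0042, adjusted p = 0.0302) and rho = 0.59 (permutation p = 0.00731, adjusted p = 0.0537), with 0.73 within HR and 0.46 within LR.

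DCN entered none of the 9 pairs. Its r with LUM, its neighbour on the chromosome, was 0.12 (permutation p = 0.608) and rho was 0.20 (permutation p = 0.392). Its r with COL3A1 was 0.36, and with ALDH1A2 it was 0.43 (permutation p = 0.0557, adjusted p = 0.154). ALDH1A2 had its other high r with COL3A1 at 0.46 (permutation p = 0.042, adjusted p = 0.127). These 3 genes had positive r with each other, and none of their pairs passed the adjusted threshold.

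Measures of the whole array followed the same contrast. The first principal component, oriented so that neuron markers were high at its upper end, had r = 0.90 with LUM (permutation p = 1e-05, the smallest the permutations can give, rho = 0.91, permutation p = 1e-05) and 0.75 with OGN (p = 0.00014, rho = 0.69, p = 0.00093). It had r = -0.77 with MMP2 (p = 9e-05, rho = -0.76, p = 0.00013), -0.71 with COL1A1 (p = 0.00037, rho = -0.67, p = 0.00163) and -0.69 with FOXC1 (p = 0.00053, rho = -0.69, p = 0.00123). All 5 passed with adjusted p from 0.00021 to 0.00283 over 63 relations, had the same sign within HR and within LR, and stayed between 0.55 and 0.86 in size without the 2 farthest arrays. The component is made from all 23861 probe sets, the members among them, and took up 48.0% of their variance. How many of all probe sets had an r of this size with it was not counted, so these values cannot be called particular to the members. The same holds for the background controls and cell markers below. COL1A2 lay on the side of MMP2 and COL1A1 without passing, at r = -0.46 (permutation p = 0.0425, adjusted p = 0.0957, rho = -0.43, p = 0.0612). For DCN, COL3A1 and ALDH1A2 r was 0.20, -0.18 and 0.03.

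The 69 background control probe sets averaged 4.18 ± 0.131 over the HR arrays against 4.30 ± 0.125 over the LR arrays (SD, n = 10 per group). Their level had r = -0.86 with LUM (permutation p = 1e-05, the smallest possible, rho = -0.85, p = 2e-05) and 0.76 with MMP2 (p = 0.00014, rho = 0.78, p = 0.00011), and r without the 2 farthest arrays was -0.80 and 0.72. After regression on this level 0 of the 36 pairs of members passed, and LUM against MMP2 was then -0.50 (adjusted p = 0.346). After regression on the first component also 0 pairs passed, with -0.44 for LUM against MMP2 and -0.13 for LUM against OGN. COL1A2 against COL3A1 was 0.56 after the component and 0.60 after the control level, close to its value before either. The part of the background level in the relations between members was not tested beyond these fits.

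Markers of other cells were set beside the members. Neuron markers, of which 9 of 10 were measured, had a mean of 10.4 to 10.8 in the HR arrays and 10.2 to 10.7 in the LR arrays, and their mean had r = 0.88 with LUM (permutation p = 1e-05, the smallest possible, rho = 0.88, p = 1e-05) and -0.78 with MMP2 (p = 0.00011, rho = -0.80, p = 4e-05). Microglia markers, with 7 of 9 measured, ran from 8.63 to 9.21 in HR and from 8.59 to 9.23 in LR and had r = -0.70 with LUM (p = 0.00072, rho = -0.71, p = 0.00063). Astrocyte markers, with 9 of 9 measured, had r = 0.71 with LUM (p = 0.00054, rho = 0.80, p = 7e-05) and -0.65 with MMP2 (p = 0.0023, rho = -0.71, p = 0.0005). LUM was thus high where neuron and astrocyte markers were high, and MMP2 where they were low. The part of these cell types in the differences of the members was not tested.

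Choroid plexus, ependyma, mural cell, endothelium and blood markers gave 45 relations with the members, of which 0 passed after adjustment and 3 had an unadjusted permutation p under 0.05. The choroid plexus, which lies against the hippocampus and holds a stroma of fibroblasts, had 11 of 18 markers above the filter, with means of 7.04 to 7.85 in HR and 6.92 to 7.68 in LR, and r of -0.02 with LUM, -0.07 with MMP2 and 0.17 with DCN. With the choroid plexus markers as a covariate LUM differed by 0.50 (limma, p = 0.00617) and MMP2 by -0.38 (p = 0.0326). Without it they differed by 0.45 and -0.36. The share of all probe sets with an unadjusted p under 0.05 was 14.2% with this covariate and 11.5% without it. Markers of pericytes and smooth muscle had 11 of 15 genes above the filter, with means of 7.05 to 7.33 in HR and 7.11 to 7.30 in LR, and their highest r was 0.46 with ALDH1A2 (permutation p = 0.0414, adjusted p = 0.463, rho = 0.42, p = 0.069). With these as a covariate LUM differed by 0.40 and MMP2 by -0.32 (limma, p = 0.0613), and the share of all probe sets was 5.83%. The part of the choroid plexus or of mural cells in the differences of the members was not tested beyond these fits.

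Genes whose pattern over the 20 arrays was most like that of a member were taken from the genes that passed the filter. Each gene was represented by its brightest probe set, and the members themselves were left out of the search. For LUM these were PPM1B (r = 0.96), a protein phosphatase gene, SCG3 (0.95), which encodes a secretogranin of dense-core vesicles, and RBM12B (0.95). For OGN they were COPS2 (0.96), a COP9 signalosome subunit gene, TBC1D15 (0.95) and CCPG1 (0.94). Over 10312 genes, the other members included, r had a median of -0.35 for LUM and -0.32 for OGN, so negative values were common for both. For MMP2 they were POLR2G (0.87), a subunit of RNA polymerase II, ITGA7 (0.87), a laminin receptor subunit, and TBC1D2B (0.86). For COL1A1 they were the small heat shock protein gene HSPB1 (0.87), RALGDS (0.84) and KCNT1 (0.83), and for FOXC1 LOC100152206 (0.86), TNNT2 (0.86) and TIGD5 (0.85).

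The steady genes, and ALDH1A2 with a probe set below the filter level, had less close neighbours. DCN had STOML3 (0.72), MYCBP (0.69) and ALKBH1 (0.67), COL1A2 had GLRA4 (0.77), LOC100517188 (0.77) and BF (0.74), and COL3A1 had ISG12(A) (0.80), SLC10A4 (0.66) and NPM3 (0.66). For ALDH1A2 the closest gene outside the members was ZIC1 (0.61), a zinc finger factor of the meninges and cerebellum, followed by LINGO2 (0.56) and CCDC28A (0.55). These are descriptions over 20 arrays that share tissue and array-wide shifts.

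Other genes of the matrix and the meninges were compared between HR and LR in the same fit. Over 131 genes of 9 lists, 14 (10.7%) had an unadjusted p under 0.05, 8 higher and 6 lower in HR, next to 11.5% of all probe sets, and 0 passed the adjusted threshold. Their median difference was -0.04 log2. The lists thus held about the share found among all probe sets.

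Of the small leucine-rich proteoglycans 3 of 9 were bright enough to test. PRELP, which anchors basement membranes to collagen, averaged 9.16 ± 0.25 over HR arrays against 8.92 ± 0.13 over LR arrays (SD, n = 10 per group), with a difference of 0.25 ± 0.09 log2 (SE, limma, p = 0.0119, adjusted p = 0.339). BGN, which encodes biglycan, the closest relative of decorin, had -0.31 ± 0.14 (p = 0.0328), and FMOD, which encodes fibromodulin, -0.09 ± 0.11 (p = 0.431). These 3 genes thus lay on both sides of 0. The differences of LUM, OGN and DCN were 0.45, 0.14 and 0.06. Those of OGN and DCN could not be told from 0 (limma, p = 0.447 and 0.533), and OGN was at 0.01 without HR replicate 5. A direction shared by LUM, OGN and DCN can therefore not be read from these signs.

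Of the further collagen chains 10 were tested, and 2 had an unadjusted p under 0.05, next to 11.5% of all probe sets. Both were higher in HR, next to 7.78% of all probe sets. The mean was lower in HR for the 8 others, and the median difference of the list was -0.05 log2. Of all probe sets tested, 45.9% had a higher mean in HR. COL5A2, a chain of the type V collagen that starts fibrils, differed by 0.19 ± 0.08 log2 (SE, limma, p = 0.0166), and COL15A1, of the zone next to basement membranes, by 0.35 ± 0.15 (p = 0.0322), with 10 of 10 HR arrays above the LR median but a mean in LR of 5.48, below the filter level. COL8A2 (-0.12 ± 0.08) and COL6A3 (-0.04 ± 0.07) did not. In the basement membrane list 1 of 12, NID2, had such a p (0.14 ± 0.07), next to the same 11.5%. LAMC1 (0.14 ± 0.08) and COL18A1 (-0.15 ± 0.10) did not.

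Collagen processing and cross-linking had 0 of 17 genes with an unadjusted p under 0.05, next to 11.5% of all probe sets, and a median of -0.06. Here LOXL2 was at -0.13 ± 0.08 log2 (SE), P4HB at -0.15 ± 0.09, PPIB at -0.13 ± 0.08 and SPARC at 0.00 ± 0.05. Among 13 other matrix proteases and inhibitors, MMP9, the second gelatinase, differed by -0.20 ± 0.08 (limma, p = 0.0281), TIMP1 by -0.21 ± 0.10 (p = 0.0479) and the collagen-degrading cathepsin gene CTSK by 0.18 ± 0.08 (p = 0.0379). TIMP2, which takes part in the activation of the MMP2 protein, was at -0.01 ± 0.09 (p = 0.867). Both gelatinase genes were thus lower in HR at unadjusted p only. Of these 13 other genes, 10 had a lower and 3 a higher mean in HR, while 45.9% of all probe sets tested had a higher mean. The other matrix, meningeal and signalling lists also had more genes with a lower than with a higher mean in HR.

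Fibroblast genes outside the members gave 3 of 28 with an unadjusted p under 0.05, next to 11.5% of all probe sets. FSTL1, a secreted glycoprotein gene, differed by 0.21 ± 0.07 log2 (SE, limma, p = 0.00669, adjusted p = 0.317), with all 10 HR arrays above the LR median. The cadherin gene CDH11 differed by 0.37 ± 0.15 (p = 0.0239) and the WNT antagonist gene SFRP4 by -0.23 ± 0.09 (p = 0.0167), and THY1, which neurons also express, by -0.01 ± 0.07. Of 16 further genes of the meninges and the arachnoid barrier, 1 had such a p, WFIKKN2 at -0.28 ± 0.11 (p = 0.0217), and PTGDS (-0.11 ± 0.08) and ZIC2 (-0.08 ± 0.06) did not.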

How the data were processed

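Hippocampus RNA of 20 pigs was hybridised to Affymetrix Snowball arrays, 1 per animal, and scanned with GCOS 1.1.1. The authors deposited log2 values per probe set from the robust multichip average, which corrects background, makes array distributions equal and summarises probes. It hides any shift that most transcripts share. The table held 47845 probe sets, and 0 columns were left unused. The study's detection calls were not used here. Controls (123 probe sets) were removed, and the 23861 probe sets with a mean above the median of 5.53 were tested. In the platform annotation 26426 probe sets carried 1 symbol, 0 several and 21296 none. Some symbols are old. Gene positions came from RefSeq on Sscrofa11.1.

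Group differences were fitted with limma 3.58.1 in R 4.3.3 (lmFit, eBayes, two-sided, Benjamini-Hochberg over all tested probe sets). Correlations over arrays used two-sided permutation tests with 100000 resamples. Both steps were tested on simulated data. Arrays carry no read depth, and their number limits the precision. The members and lists were chosen with earlier results of these data known. Named were all members, up to 3 genes per list with the smallest p and its brightest gene, and the 3 genes outside the members most like each member. Other genes were named as examples after their values were seen. Alternatives were the filter, the choice of probe set, moderation, array weights, a rank test, covariates and leaving out arrays.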

Additional observations from a re-analysis of the deposited data

Results flagged for a closer look

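In 3 of 18 groups of 10 arrays, 1 array lay farther from the nearest other one than is common for a group of this size, and chance gives about 1 in 20. OGN in HR replicate 5 was at 8.74, 0.89 above the next HR array. COL1A1 in LR replicate 3 was at 8.63, 0.52 above the next LR array. COL1A2 in the same LR array was at 8.87, 0.32 above the next.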

How the results depend on the processing

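No paired analysis was possible because the replicate numbers only name arrays in accession order and join no HR animal to an LR animal. With limma or the Wilcoxon test, 0 members passed the adjusted threshold under each alternative run. Of all probe sets, 947 passed with array weights, where LUM had an adjusted p of 0.0513 and MMP2 of 0.0692, and 110 without HR replicate 1, where they had 0.0965 and 0.18. Over all alternatives the adjusted p ran from 0.0513 to 1.0 for LUM and from 0.0692 to 1.0 for MMP2. The count of members with an unadjusted p under 0.05 was 2, and 1 with the Wilcoxon test, the first principal component or the pericyte and smooth muscle markers as a covariate, or without the 2 arrays at the ends of that component (LR replicate 1 and HR replicate 5). It was 0 with the title number or the background control level as a covariate. It was also 0 with the number above or below 2700 as a block, and within the arrays above 2700. For these settings the share of all probe sets with such a p was 2.83%, 7.45%, 2.42% and 2.91%, in that order. For the settings named above with a count of 1 it was 9.61%, 13.5%, 5.83% and 7.28%, in their order. It was 11.5% in the main fit. The count of members was 1 to 2 with 1 array left out. The 14 genes of the other lists became 26 with array weights, where 23.5% of all probe sets had such a p, 2 with the title number (2.83%) and 9 with the first component (13.5%). The block and the analyses within ranges of the number were chosen after seeing the data.

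Differences turned their sign only where they were small, except for MMP2, at 0.06 with the block and 0.17 within the arrays above 2700. OGN was at -0.05 with the title number, -0.10 with the background level, -0.05 with the first component, -0.04 without its end arrays, -0.03 with the block and -0.10 above 2700. COL1A1 was at 0.01, 0.04 and 0.07 with the title number, the background level and the block, and COL3A1 at -0.03 above 2700. FOXC1 was at 0.13, 0.18, 0.10, 0.02, 0.08, 0.10 and 0.04 with the title number, the background level, the component, the pericyte markers, without the end arrays, with the block and above 2700, and between -0.08 and 0.06 with 1 array left out. LUM kept its sign in all 35 alternatives.

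Of the 36 pairs 9 passed, and 3 with Spearman's rho, 2 within HR, 0 within LR, 0 after regression on the first component or on the background level, 1 without the end arrays of the component, 1 above 2700, 2 below 2700 and 1 to 10 with 1 array left out. The sign turned for LUM against OGN after the component (-0.13), LUM against FOXC1 after the component (0.23) and the background level (0.07), and COL1A1 against MMP2 below 2700 (-0.11). The cause of these changes was not tested, and the ranges hold only 12 and 8 arrays. Signal over background limits ALDH1A2 and FOXC1.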

Other observations

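Genes around retinoic acid, which ALDH1A2 produces, and around TGF-beta, which drives collagen transcription, were compared in the same limma fit. In the retinoic acid list 2 of 13 tested genes had an unadjusted p under 0.05, next to 11.5% of all probe sets, and 0 passed the adjusted threshold. The retinol dehydrogenase gene RDH10 differed by 0.21 ± 0.09 log2 (SE, limma, p = 0.0251) and the retinoid receptor gene RXRB by -0.26 ± 0.10 (p = 0.0181), so they lay on opposite sides. RARB differed by 0.17 ± 0.09 (p = 0.0774), and TTR, which the choroid plexus also makes, by 0.44 ± 0.71 (p = 0.543). The TGF-beta list had 0 genes of 19 past that unadjusted p, next to the same 11.5%, and a median difference of -0.03. THBS1, whose product activates TGF-beta, was at 0.13 ± 0.07 (p = 0.0572), TGFB2 at 0.16 ± 0.09 (p = 0.0901) and SMAD4 at 0.05 ± 0.06.

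Ependyma markers had r = 0.52 with LUM (permutation p = 0.0196, rho = 0.43, p = 0.063, adjusted p = 0.441 and 0.59 over 45 relations) and -0.53 with MMP2 (permutation p = 0.018, rho = -0.50, p = 0.0268, adjusted p = 0.441 and 0.59). Only 5 of 14 markers were bright enough to enter, among them CCDC39 at 0.44 ± 0.19 log2 higher in HR (SE, limma, p = 0.0277) and FOXJ1 at -0.11 ± 0.09.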
